A study of Mus musculus with 4 samples.

Results

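Imprinted genes are genes of which mainly 1 parental copy is used, and 40 of them, Mest and Copg2 among them, were followed here in ribosome-bound RNA of hippocampal CA1 neurons after sleep deprivation. The members were named as a list, and their rows were found by gene name. Of the 40 names, 39 had a row in the deposited table of 28193 genes and 38 had more than 5 counts in every library, so these 38 were tested among 22338 genes. H19 had 51, 15, 47 and 4 counts in NSD libraries 1 and 2 and SD libraries 1 and 2 and was not tested, and Phlda2 was not analysed here.

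In fosTRAP-seq, neurons that express Fos during a labelling window acquire an HA-tagged ribosomal protein, and RNA that comes down with an HA antibody is sequenced. The mice were male C57BL/6J animals of 3 to 5 months, housed alone for 7 days beforehand. Each carried a pair of adeno-associated viruses in CA1, a c-Fos-ERT2-Cre-ERT2-PEST vector and a Cre-dependent EF1a HA-mRpl22 vector with eYFP, and received 15 or 50 mg/kg of 4-hydroxytamoxifen at Zeitgeber time (ZT) 2. Every mouse, controls included, went through 5 h of sleep deprivation by gentle handling on day 0, so the tagged cells of both groups are those that used the Fos promoter around that first bout. The SD group had a further 5 h of deprivation on day 7, the NSD group was left undisturbed, and CA1 was taken at ZT 5. Each library pooled 5 mice, with n = 2 libraries per group, and batch number 1 or 2 in the labels pairs 1 NSD with 1 SD library. The labels call the genotype cFos-Cre:Ribotag and the tissue dorsal hippocampus, where the methods describe the viruses and dissected CA1. Which tamoxifen dose a library had is not given in the sources used here.

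Imprinted genes mostly lie in clusters, in which a stretch of DNA that is methylated on 1 parental copy sets which copy of each neighbour is transcribed. Many clusters hold a long non-coding RNA (lncRNA) transcribed from the copy on which the protein-coding neighbours are silent, and several of their products act in growth, in metabolism and in neurons. The mice were of 1 inbred strain, so parental origin was not measured, and "paternally expressed" and "maternally expressed" below are background knowledge of each gene.

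The promoters of the 3 members with a called rise are shown because Mest and Copg2 changed together although they start far apart and point towards each other. The windows are RefSeq windows of 300 bases around an annotated start on GRCm38.p6, written 5′ to 3′ on the gene's strand, at chr6:30737800-30738099 on the plus strand for Mest, chr6:30896745-30897044 on the minus strand for Copg2 and chr1:63273019-63273318 on the plus strand for Zdbf2. Of 3 Mest windows, the first of a pair that overlap and tie for most CpG is given, and of 2 Zdbf2 windows the one with more CpG, while the other holds 3 matches to TGCCGC. Capitals mark matches on either strand to TGACGTCA, the site of the activity-regulated factor CREB, or to TGCCGC, the hexamer that the imprint-keeping protein ZFP57 binds when it is methylated.
Mest: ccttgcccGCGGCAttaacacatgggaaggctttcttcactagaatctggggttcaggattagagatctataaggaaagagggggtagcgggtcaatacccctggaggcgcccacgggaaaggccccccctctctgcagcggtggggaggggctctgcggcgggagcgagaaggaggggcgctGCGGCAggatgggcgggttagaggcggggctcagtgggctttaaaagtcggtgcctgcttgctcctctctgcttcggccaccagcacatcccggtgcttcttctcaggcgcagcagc
Copg2: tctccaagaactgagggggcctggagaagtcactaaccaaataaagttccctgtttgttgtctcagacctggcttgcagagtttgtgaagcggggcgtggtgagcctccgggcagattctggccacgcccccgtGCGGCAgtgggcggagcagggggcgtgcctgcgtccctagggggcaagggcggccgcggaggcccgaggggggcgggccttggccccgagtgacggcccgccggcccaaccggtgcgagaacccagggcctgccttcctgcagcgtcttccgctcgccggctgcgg
Zdbf2: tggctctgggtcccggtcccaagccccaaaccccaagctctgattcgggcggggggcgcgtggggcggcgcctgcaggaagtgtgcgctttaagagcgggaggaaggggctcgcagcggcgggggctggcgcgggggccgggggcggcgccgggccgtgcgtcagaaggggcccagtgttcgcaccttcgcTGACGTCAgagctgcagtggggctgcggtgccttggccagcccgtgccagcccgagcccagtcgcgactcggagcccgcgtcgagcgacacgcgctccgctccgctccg

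The Mest window held 17 CpG and 2 matches to TGCCGC, the Copg2 window 25 CpG and 1 match to TGCCGC, and the Zdbf2 window 38 CpG and 1 match to TGACGTCA. TGACGTCA was found in 1.79% of all 32851 promoter windows and in 4 of the 49 windows of the 31 members matched by symbol, those of Meg3, Peg3, Usp29 and Zdbf2. Peg3 and Usp29 start next to each other on opposite strands, and their windows overlap. TGCCGC was found in 11.6% of all windows and in 12 windows of 11 members. The AP-1 site TGACTCA, which Fos and Jun bind, was found in 5.20% of all windows and in those of Commd1 and Magel2, and the EGR site GCGTGGGCG in 0.612% of all windows and in none of the members'. Member windows held a median of 17 CpG against 7 over all windows, and a match says only that these letters stand in the window.

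Of the 38 members tested, 3 were called higher after SD (Mest, Copg2 and Zdbf2) and 3 lower (Meg3, Rtl1 and Kcnq1ot1). A gene was called where the quasi-likelihood test of edgeR gave a p, adjusted by Benjamini and Hochberg's method across every gene tested, under 0.05 and the fold change was over 1.2. By this rule 0.770% of the genes tested were higher and 2.33% lower. Over the members the log2 fold change had a median of 0.07, against -0.02 over all genes, and 20 of the 38 lay within 0.2 of 0. With single libraries left out, the member median ran from 0.03 (without NSD library 1) to 0.11 (without NSD library 2). Both SD libraries were above both NSD libraries for 16 members and below for 10, where 22.0% of all tested genes were above and 27.5% below. With the batch number as a block, 6 members were called higher and 5 lower, against 2.99% and 8.47% of all genes, the additions being Dlk1, Nnat and Dio3 among the higher and Rian and Mirg among the lower. DESeq2 called 5 members higher and 3 lower, against 3.0% and 5.80% of all genes. The plot of fold changes places Mest and Copg2 apart from the other members.

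**Figure D1:**
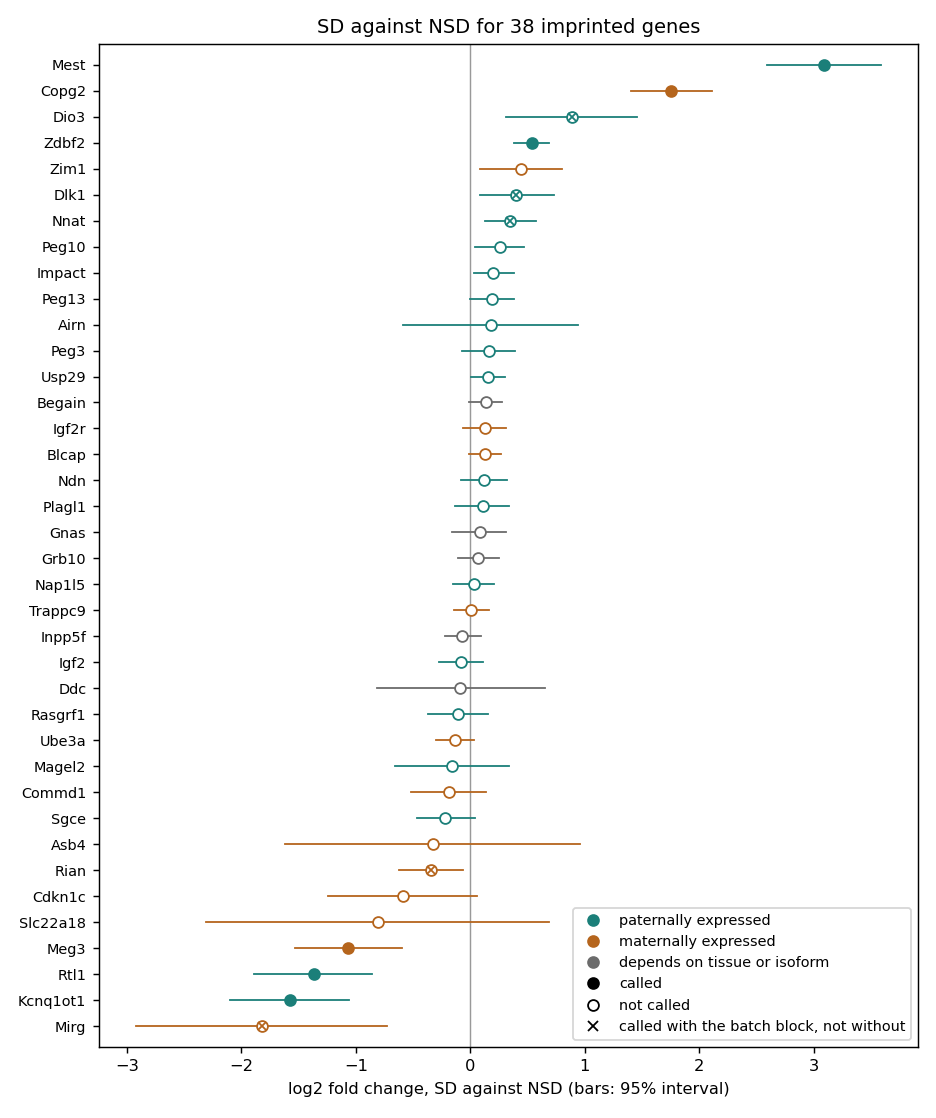
Log2 fold change, SD against NSD, of the 38 imprinted genes tested (x axis), 1 row per gene, with the 95% interval of the edgeR fit as a bar. Colour gives the parental copy known to be expressed, filled points are the 6 called genes and crosses the 5 that edgeR called with the batch as a block and not without it. Mest at 3.09 and Copg2 at 1.75 stand apart on the right, and Mirg, Kcnq1ot1, Rtl1 and Meg3 lie at -1.07 or lower on the left.

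The libraries held 153511705 to 195910235 counts, TMM factors ran from 0.965 to 1.02, and the members together held 0.589% to 0.628% of each library's counts. Markers of CA1 pyramidal neurons were present in every library, with 5 of 5 genes summing to 1151 to 1382 CPM (the usual per-library scaling of counts, here by totals corrected with TMM). Markers of oligodendrocytes summed to 1403 to 1694 CPM and those of astrocytes to 414 to 463 CPM, so glial RNA was also present. In libraries of pooled tissue, fewer cells of a type and less RNA per cell cannot be told apart.

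Per kilobase of annotated exon, Peg13, an lncRNA inside Trappc9, had the highest level in NSD libraries, with 88.1 CPM per kb, followed by Nap1l5, a small histone chaperone relative, with 87.4. Next came Rasgrf1, a neuronal activator of Ras, with 66.9 CPM per kb, Gnas, the stimulatory G protein subunit, with 59.6, Meg3 with 58.1 and Peg3, a zinc finger protein, with 58.0. Nap1l5 lay within the spread of Peg13, and Gnas, Meg3 and Peg3 within the spread of each other. The order depends on the length used. Per kilobase of the canonical transcript alone Meg3 was highest in NSD libraries, with 678 CPM per kb, followed by Gnas with 190.2 and Rasgrf1 with 175, and Peg13 had 88.1. Mest had 7.24 CPM per kb in NSD and 61.7 in SD libraries over all annotated exons, and 46.3 and 394 over the canonical transcript. Airn, Slc22a18 and Asb4 were below 1 CPM in all 4 libraries.

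**Figure D2:**
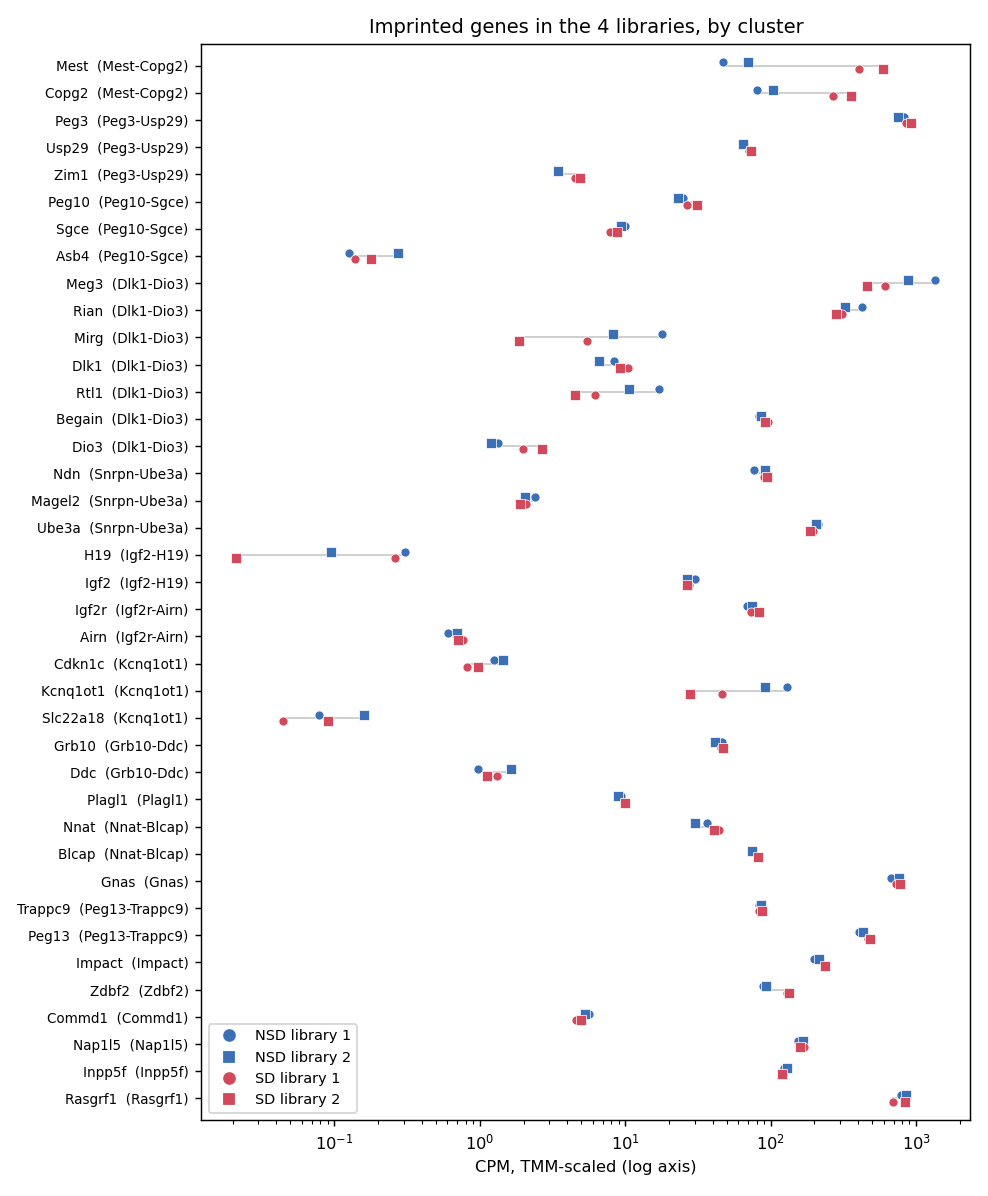
CPM of the 39 imprinted genes with a row in the table (x axis, log scale), 1 row per gene with its cluster in brackets. Circles are libraries 1 and squares libraries 2 of each group, blue for NSD and red for SD, and the grey line joins the lowest and the highest library. Mest ran from 47.3 to 589.7 CPM, while genes such as Usp29 or Blcap kept all 4 points within 10 CPM of each other.

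Mest (ENSMUSG00000051855, GRCm39 chr6:30723546-30748464, plus strand) is a paternally expressed gene for an enzyme-like protein of the endoplasmic reticulum known from growing mesoderm and from neurons. It had 47.3 and 69.6 CPM in NSD libraries 1 and 2, and 406 and 589.7 CPM in SD libraries 1 and 2. Both SD libraries were several times above both NSD libraries, and the groups did not overlap. Mest rose 8.52-fold (log2 fold change 3.09 ± 0.219 SE, 95% interval 2.59 to 3.59, edgeR adjusted p = 0.00892, n = 2 libraries per group). It ranked 1 of the 22338 genes both by size of rise and by p. Within batch 1 the rise was 8.58-fold and within batch 2 it was 8.47-fold. In shares of all counts, Mest took 0.00481% in NSD library 1 (95% Wilson interval 0.00471% to 0.00492%) and 0.00712% in NSD library 2 (0.00699% to 0.00726%). After SD the share was 0.0403% (0.0400% to 0.0406%) in library 1 and 0.0569% (0.0566% to 0.0573%) in library 2. These intervals cover counting error alone.

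Copg2 (ENSMUSG00000025607, GRCm39 chr6:30747553-30873729, minus strand) encodes a subunit of the COPI coat of Golgi vesicles and is maternally expressed in many tissues. In NSD libraries 1 and 2 it had 80.6 and 104 CPM, against 268 and 355 CPM after SD, again without overlap of the groups. The rise was 3.37-fold (log2 1.75 ± 0.156 SE, 95% interval 1.40 to 2.11, edgeR adjusted p = 0.0265), rank 18 of all genes by size of rise and 2 by p. The Copg2 call was lost with the filterByExpr filter of edgeR (log2 1.76, edgeR adjusted p = 0.0628). The copies of Mest and Copg2 known to be expressed come from opposite parents, and both genes rose.

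Both genes converge, and their 3′ ends share 912 bases in the coordinates of the deposited table. In the later GENCODE vM39 annotation of the same build the spans share 10554 bases and the exons 3850 bases, which is 47.71% of the Mest exon bases and 34.47% of those of Copg2. A longer Mest transcript that runs into Copg2 is known from the nervous system as background, and vM39 models of Mest go 3594 bases past its end in the table. Of the 5121 Copg2 exon bases of vM39 that lie within the Copg2 span of the table, Mest exons cover 1770 on the other strand. The library kit keeps strand, but whether the counting used it is not given in the sources used here, and without strand reads of the shared stretch cannot be assigned to either gene. Copg2 had 1.70 and 1.49 counts per Mest count in NSD, and 0.660 and 0.602 in SD libraries. For each added CPM of Mest, Copg2 gained 0.522 CPM in batch 1 and 0.482 CPM in batch 2. How much of the Copg2 rise comes from RNA of the Mest strand was not tested.

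Cep41, a gene for a protein of the cilium that lies beyond the start of Mest, was looked at after its values had been seen. It had 4.63 and 5.27 CPM in NSD and 6.55 and 6.41 CPM in SD libraries. The SD values were above the NSD values, and the log2 fold change of 0.39 ± 0.139 SE did not pass (edgeR adjusted p = 0.170).

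**Figure D3:**
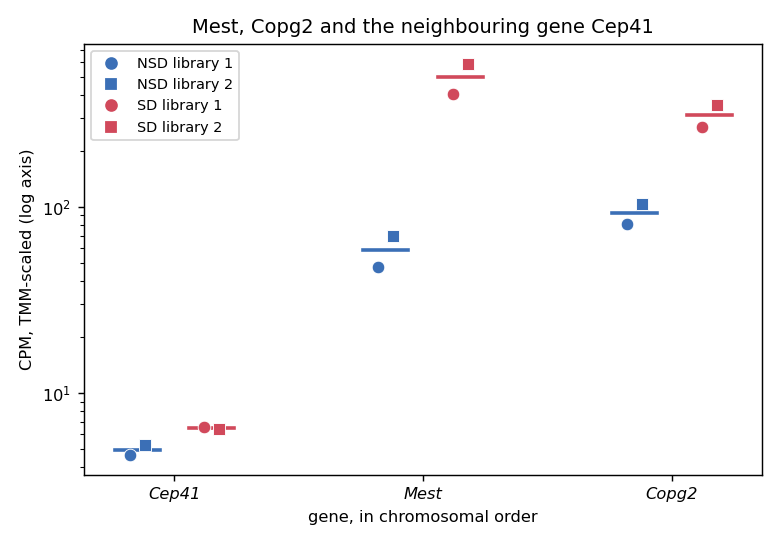
CPM of Cep41, Mest and Copg2 (y axis, log scale), in chromosomal order. Points are single libraries, circles for number 1 and squares for number 2, blue for NSD and red for SD, and short lines are group means of n = 2. Mest moved from a mean of 58.4 to 498 CPM, Copg2 from 92.3 to 311 CPM and Cep41 from 4.95 to 6.48 CPM.

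An intron of Mest holds the hairpin of miR-335 (GRCm39 chr6:30741298-30741395, plus strand), shown because it shares the transcript that rose most. Its mature forms are given from RefSeq with the seed, bases 2 to 8, in capitals. Libraries of this kind do not count mature miRNAs, so their level was not measured.
miR-335-5p: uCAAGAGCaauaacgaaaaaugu
miR-335-3p: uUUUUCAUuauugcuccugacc

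Zdbf2 (ENSMUSG00000027520, GRCm39 chr1:63312424-63353735, plus strand) is a paternally expressed gene that acts in the hypothalamus on feeding and growth. It had 88.7 and 92.8 CPM in NSD and 129.8 and 133 CPM in SD libraries. The replicates lay within 5 CPM of each other and the groups were far apart by that measure. It rose 1.45-fold (log2 0.54 ± 0.0668 SE, edgeR adjusted p = 0.0328), with 1.46-fold in batch 1 and 1.44-fold in batch 2. The Zdbf2 call was lost with filterByExpr (edgeR adjusted p = 0.0628) and at a fold threshold of 1.5. Zdbf2 has no neighbour among the members, and its rank by p was 18 of all genes.

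In the Dlk1-Dio3 domain on chromosome 12, the maternally expressed lncRNAs had fold changes below 0 and the paternally expressed genes had ones above 0, apart from Rtl1, and only Meg3 and Rtl1 of these members passed the test without the batch block. Meg3, an lncRNA and growth suppressor at the start of the maternal transcripts, had 1359 and 885 CPM in NSD and 609 and 463 CPM in SD libraries. Its libraries did not overlap, although NSD library 1 was far above NSD library 2, and Meg3 fell 2.09-fold (log2 -1.07 ± 0.202 SE, edgeR adjusted p = 0.0397). The Meg3 call was lost without NSD library 1 (log2 -0.70, edgeR adjusted p = 0.0558), without a count filter (0.0554) and with filterByExpr (0.0658). Rian, a host of small nucleolar RNAs, had 422, 325, 309.5 and 281 CPM in the same library order, and its log2 fold change was -0.34 (edgeR adjusted p = 0.179 without and 0.00971 with the block). Rian had -0.11 without NSD library 1 and passed without NSD library 2 (log2 -0.52, edgeR adjusted p = 0.0356). Mirg, a host of many miRNAs at the far end, had 17.8, 8.24, 5.5 and 1.87 CPM, with a log2 fold change of -1.82 ± 0.480 SE (edgeR adjusted p = 0.0804 without and 1.08e-06 with the block). Mirg had -1.14 without NSD library 1 and -1.24 without SD library 2, against -2.80 without SD library 1, and passed with NSD library 2, SD library 1 or SD library 2 left out. All 3 lncRNAs were lowest in SD library 2 and highest in NSD library 1.

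Between Rian and Mirg the table holds further transcripts of the same strand, which were singled out after their values had been seen. B830012L14Rik, an lncRNA, had 21.3, 10.8, 4.97 and 1.66 CPM and its log2 fold change was -2.28 (edgeR adjusted p = 0.0453). Gm37899 is a TEC gene, Ensembl's class for transcripts not yet backed by experiment, with 19.1, 10.4, 4.34 and 1.29 CPM, and its log2 fold change was -2.39 (edgeR adjusted p = 0.0447). Neither passed in DESeq2 (adjusted p = 0.0735 and 0.0673). Of the 7 plus-strand genes tested in the domain, 5 had a fold change below 0, and these 5 are Meg3, Rian, Gm37899, B830012L14Rik and Mirg. In the Snrpn-Ube3a cluster 6 of 7 plus-strand genes tested were below 0, among them Gm7367 at -0.0, Ube3a at -0.13 and Magel2 at -0.16. Of all 22338 genes tested, 11805 were below 0. Of the 24 genes tested in the Snrpn-Ube3a cluster 2 that are not members were called lower, and 11 with the block, 7 of them TEC genes. Of all tested TEC genes 18.5% were called lower by edgeR, and 52.6% with the block.

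The paternally expressed, protein-coding Dlk1 and Dio3 are the other 2 plus-strand genes. Dlk1, a membrane protein that restrains Notch signalling and differentiation, had 8.37 and 6.61 CPM in NSD and 10.5 and 9.28 CPM in SD libraries. Its log2 fold change was 0.40 (edgeR adjusted p = 0.163 without and 0.0175 with the block). It became 0.61 without NSD library 1 and 0.24 without NSD library 2. Dio3, the deiodinase that inactivates thyroid hormone, had 1.34 and 1.19 CPM in NSD and 1.99 and 2.68 CPM in SD libraries, and its log2 fold change was 0.89 (edgeR adjusted p = 0.0953 without and 0.0215 with the block, DESeq2 adjusted p = 0.0169). Dio3 also passed in edgeR without SD library 1 (adjusted p = 0.0133). For both genes each SD library was above each NSD library. Begain, a synaptic protein gene at the edge of the domain with an imprint that depends on the isoform, had 83.1 to 95.3 CPM and a log2 fold change of 0.14 that did not pass.

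Rtl1 (GRCm39 chr12:109555627-109566764, minus strand), a retrotransposon-derived gene read from the paternal copy, had 17.0 and 10.7 CPM in NSD and 6.16 and 4.54 CPM in SD libraries. It fell 2.59-fold (log2 -1.37 ± 0.225 SE, edgeR adjusted p = 0.0363), and the groups did not overlap. The Rtl1 call was lost without a count filter (edgeR adjusted p = 0.0519) and with filterByExpr (0.0628). The maternal transcript of the opposite strand runs across Rtl1 and carries miRNA hairpins that lie opposite its exon. Rtl1 counts were 12.5 and 12.0 per 1000 Meg3 counts in NSD and 10.1 and 9.81 in SD libraries. If counting ignored strand, reads of the maternal transcript over Rtl1 would enter the Rtl1 row, and their share was not tested. Mature miRNAs of these hairpins, from RefSeq with the seed in capitals, are shown because each matches Rtl1 along its whole length on the opposite strand, in 3 of 3 annotated Rtl1 transcripts.
miR-431-5p: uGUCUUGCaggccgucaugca
miR-433-3p: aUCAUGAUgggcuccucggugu
miR-127-3p: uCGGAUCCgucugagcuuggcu
miR-434-3p: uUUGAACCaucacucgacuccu
miR-136-5p: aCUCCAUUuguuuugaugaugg

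**Figure D4:**
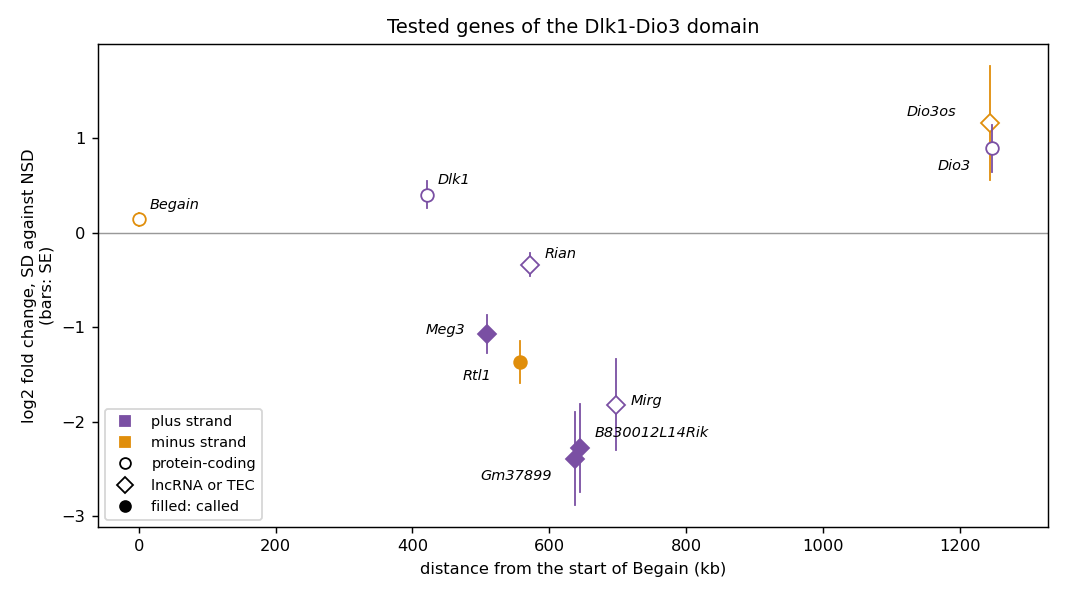
Log2 fold change, SD against NSD, with its SE (y axis) of the 10 tested genes of the Dlk1-Dio3 domain against the distance of each from the start of Begain in kb (x axis). Purple marks the plus and orange the minus strand, circles protein-coding and diamonds lncRNA or TEC genes, and filled symbols called genes. The middle of the domain from Meg3 to Mirg lies below 0, with values from -0.34 to -2.39, and Begain, Dlk1, Dio3os and Dio3 lie above it.

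Kcnq1ot1 (GRCm39 chr7:142757195-142850286, minus strand), the paternal lncRNA that silences the Kcnq1 cluster on that copy, was the third called fall. It had 130 and 91.9 CPM in NSD and 46.2 and 28.1 CPM in SD libraries, with no overlap. It fell 2.99-fold (log2 -1.58 ± 0.227 SE, 95% interval -2.10 to -1.06, edgeR adjusted p = 0.0328). The Kcnq1ot1 call was lost with filterByExpr (edgeR adjusted p = 0.0628). Its log2 fold change was -1.98 without SD library 1 and -1.25 without SD library 2. Of the maternally expressed genes that Kcnq1ot1 is known to silence, the tested members Cdkn1c and Slc22a18 were low and did not pass. Cdkn1c, an inhibitor of the cell cycle, had 1.25 and 1.44 CPM in NSD and 0.813 and 0.973 CPM in SD libraries (log2 -0.59 ± 0.285 SE), and Slc22a18, a transporter, had 8 to 25 counts per library.

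Of the 6 lncRNA members tested, 2 were called lower, and 4 with the batch block, where 4.18% of all 2610 tested lncRNA genes were called lower, and 14.7% with the block. Their median log2 fold change was -0.70, against -0.36 over all tested lncRNA genes and 0.02 over all tested protein-coding genes. Airn, the paternal antisense transcript of Igf2r, had 0.603 to 0.763 CPM, and Peg13 had 402 and 431 CPM in NSD and 470.1 and 479 CPM in SD libraries. The log2 fold changes of these last 2, 0.18 and 0.19, did not pass.

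Other RNAs known to stay in the nucleus, followed as a short list, had values in the direction of Meg3 and Kcnq1ot1. All 4 of a list of such RNAs, of which the table classes Snhg11 as protein-coding, had values below 0: Miat, Neat1 and Snhg11 were called lower, with log2 fold changes of -1.27, -1.34 and -1.58, and Malat1 had -0.81 and was called by edgeR with the block and not without it. The list summed to 4451 and 2924 CPM in NSD and 2323 and 1645 CPM in SD libraries. Snhg14, an imprinted lncRNA outside the list, had 133 and 101 CPM in NSD and 129 and 109 CPM in SD libraries (log2 0.03). TEC genes took 0.273% and 0.210% of the counts in NSD and 0.157% and 0.118% in SD libraries, and the median log2 fold change of the 1663 tested was -1.51. In the summed list, in the TEC share, in Meg3, in Mirg and in Kcnq1ot1, NSD library 1 was highest, followed by NSD library 2, SD library 1 and SD library 2. The share of nuclear RNA in a library was not measured, and its part in the falls of imprinted lncRNAs was not tested.

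**Figure D5:**
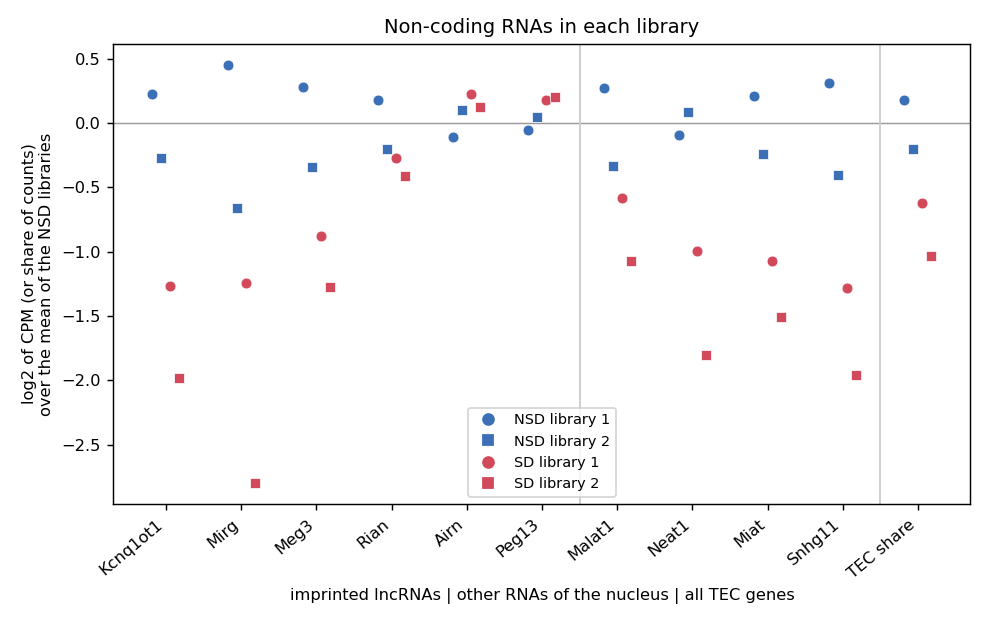
Log2 of each library's CPM over the mean of the NSD libraries (y axis) for the 6 tested imprinted lncRNAs, 4 other RNAs of the nucleus and, for TEC genes, of their share of all counts. Circles are libraries 1 and squares libraries 2, blue for NSD and red for SD. SD libraries lie below both NSD libraries for Kcnq1ot1, Mirg, Meg3, Rian, the 4 nuclear RNAs and the TEC share, and above them for Airn and Peg13.

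Nnat, a paternally expressed regulator of calcium in the endoplasmic reticulum of neurons, had 36.5 and 30.4 CPM in NSD and 44.4 and 41.1 CPM in SD libraries. Its log2 fold change of 0.35 ± 0.0960 SE passed with the block and in DESeq2 (edgeR adjusted p = 0.0879 without and 0.00269 with the block, DESeq2 adjusted p = 0.0141), and in edgeR without NSD library 1 or SD library 2 (adjusted p = 0.0252 and 0.0121). Blcap, in whose intron Nnat lies on the other strand, had 75.6 and 74.5 CPM in NSD and 82.5 and 82.0 CPM in SD libraries, and its 0.13 did not pass. Both genes had each SD library above each NSD library.

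The Peg3 domain showed small values above 0 that did not pass in any of its members. Peg3 had 829 and 756 CPM in NSD and 851 and 919.5 CPM in SD libraries (log2 0.16), and Usp29, a ubiquitin protease gene that starts beside it, had 65.1, 64.9, 71.3 and 73.0 CPM (log2 0.15). Zim1, a maternally expressed zinc finger gene, had 3.46 and 3.48 CPM in NSD and 4.51 and 4.92 CPM in SD libraries (log2 0.44 ± 0.157 SE, edgeR adjusted p = 0.167). In all 3 both SD libraries were above both NSD libraries.

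No member of the Peg10 domain or of the domain of Prader-Willi and Angelman syndromes was called with all 4 libraries. Peg10, a gene from a retrotransposon, had 24.9, 23.1, 26.6 and 31.0 CPM (log2 0.26), and it passed without SD library 1 (log2 0.37, edgeR adjusted p = 0.0479). Sgce, the sarcoglycan of myoclonus dystonia, had 10, 9.39, 7.90 and 8.77 CPM (log2 -0.22). Asb4, a ubiquitin ligase adaptor, had 21 to 43 counts per library. Ube3a, the ubiquitin ligase lost in Angelman syndrome, had 210.4 and 206 CPM in NSD and 194 and 186 CPM in SD libraries, a log2 fold change of -0.13 with an interval of -0.30 to 0.03. Ndn and Magel2, proteins of the MAGE family, had 77.3 to 94.3 and 1.88 to 2.39 CPM, with log2 fold changes of 0.12 and -0.16. Ube3a shares bases with the antisense lncRNA Snhg14, whose log2 fold change was 0.03.

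Igf2, the fetal growth factor, and Igf2r, the receptor that removes it, did not pass either. Igf2 had 30.1, 26.8, 27.4 and 26.5 CPM (log2 -0.08, interval -0.27 to 0.11), and Igf2r had 68.9, 74.6, 73.7 and 82.9 CPM (log2 0.13, interval -0.06 to 0.31). In adult brain Igf2 is known from the meninges and choroid plexus. The 5 leptomeningeal markers summed to 18.6 and 17.5 CPM in NSD and 22.8 and 22.2 CPM in SD libraries, and the 5 choroid plexus markers to 16.1, 75.6, 28.4 and 5.25 CPM, with none of either list at 0 in all libraries. Their part in the Igf2 values was not tested.

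The 10 remaining members of single genes and small clusters lay between log2 fold changes of -0.19 and 0.20. Impact, a regulator of the translation kinase GCN2, had 199 and 214 CPM in NSD and 238 in each SD library (log2 0.20 ± 0.0756 SE, edgeR adjusted p = 0.183). Grb10, an adaptor that dampens insulin signalling and is paternally expressed in neurons, had 41.4 to 46.7 CPM (log2 0.07), and its neighbour Ddc, the decarboxylase of dopamine and serotonin synthesis, had 0.971 to 1.64 CPM (log2 -0.09). Gnas had 669 to 779 CPM (log2 0.08), Rasgrf1 had 689.7 to 858 CPM (log2 -0.11) and Nap1l5 had 154 to 169.8 CPM (log2 0.03). Plagl1, a zinc finger regulator of other imprinted genes, had 8.90 to 9.90 CPM (log2 0.11), Inpp5f, a phosphoinositide phosphatase, had 119 to 129.8 CPM (log2 -0.07), Commd1, of copper and endosome traffic, had 4.58 to 5.67 CPM (log2 -0.19) and Trappc9, of vesicle tethering, had 82.8 to 87.8 CPM (log2 0.01). Trappc9 shares exon bases with Peg13 on the same strand and Commd1 with Commd1b, so the split of reads within these pairs is uncertain. The same holds for Igf2, which shares 58.41% of its exon bases with Gm49394 on the same strand (mean 0.03 CPM). Inpp5f shares 21.66% of its exon bases with Mcmbp on the other strand, which matters if counting ignored strand.

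By parental origin, 14 of 20 paternally expressed members tested had a fold change above 0, with a median log2 of 0.16. The same held for 5 of 13 maternally expressed members, with a median of -0.19. Above 0 were 10533 of all 22338 genes tested, 8434 of 15551 protein-coding genes and 717 of 2610 lncRNA genes. Among the paternally expressed members, Mest and Zdbf2 were called higher and Rtl1 and Kcnq1ot1 lower. Among the maternally expressed ones, Copg2 was called higher and Meg3 lower. The 3 maternal lncRNAs had a median of -1.07 and the 10 maternal protein-coding genes one of -0.06. Among the 17 paternal protein-coding genes the median was 0.15, with 2 called higher, and 5 with the block, where 0.952% of all protein-coding genes were called higher, and 3.77% with the block. The 5 members set apart because their parental origin depends on tissue or isoform had a median of 0.07 and no call. Parental origin of the other members can also differ between tissues, and it was not measured in these libraries. Without Mest and Copg2, the median of the other 36 members was 0.05.

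Related lists held no call in the test without the block. Of 37 other imprinted genes, 31 were tested, with a median log2 fold change of 0.07, and no member was called in the edgeR test, 3 having an unadjusted p under 0.05, as had 19.1% of all genes, nor in DESeq2. Sfmbt2, a Polycomb protein gene, passed with the block, with 5.78 and 4.57 CPM in NSD and 6.91 and 7.02 CPM in SD libraries (log2 0.43, edgeR adjusted p = 0.0393 with and 0.168 without the block). Of 22 factors that write, keep or erase imprints, 20 were tested, with a median of 0.02, and none was called in the edgeR test, 2 having an unadjusted p under 0.05. Dnmt3a, which methylates DNA in neurons, passed with the block and in DESeq2, with 164 and 136 CPM in NSD and 205 and 175 CPM in SD libraries (log2 0.34, edgeR adjusted p = 0.00268 with and 0.136 without the block).

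Markers of other cell types were set beside these results. The 7 endothelial markers summed to 37.5 and 51.9 CPM in NSD and 30.8 and 20.4 CPM in SD libraries, all 7 with a fold change below 0, of which edgeR called 5 lower with the batch block and 0 without it, and DESeq2 called 4 lower. Of the 5 CA1 pyramidal markers edgeR called 0 lower without the block and 3 with it, and DESeq2 called 3 lower, with the other 2 above 0. Of the 5 markers of excitatory neurons 1 was called lower with the block and in DESeq2. Of all genes 8.47% were called lower with the block and 5.80% in DESeq2. The part of these markers' cells in the results above was not tested. The 5 mural cell markers summed to 62.4 and 59.3 CPM in NSD and 56.2 and 45.7 CPM in SD libraries, all 5 below 0, with 1 called lower with the block. The 5 microglial markers summed to 54.8 to 71.9 CPM and the 6 interneuron markers to 719 to 809.8 CPM. Among the cell type lists the ratio of SD to NSD sums was highest for the leptomeningeal one, at 1.25.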

How the data were processed

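RNA of 4 ribosome pulldowns was analysed, NSD and SD with 2 libraries each. After trimming, the authors aligned reads to mm39 with STAR and assigned them to Ensembl release 110 genes with the Partek E/M model, and deposited estimated counts without normalization. Of the genes, 55.6% have a deposited estimated count that is not whole, so counts were rounded. Only genes above 5 counts in all 4 libraries entered edgeR 4.0.16 (R 4.3.3), set up as follows (TMM factors, quasi-likelihood fit, condition only, Benjamini-Hochberg over 22338 genes). The common dispersion was 0.0296. At 153511705 to 195910235 counts per library, counting error is small except for the rarest genes, and 2 libraries per group set the precision. Alternatives were the batch number as a block, DESeq2 1.42.0 (condition only), DESeq2's size factors, the filterByExpr function or no filter at all, only protein-coding genes, other fold thresholds, and each library left out. The labels' batch numbers pair the libraries, and same-numbered libraries deviated from their group means with a correlation of 0.178 across genes. Run on counts simulated without a batch effect, the fits gave every recovered change its true direction. In each, however, the share of false calls was above the nominal threshold, most so with the block. With no batch effect simulated, this cannot show how the block behaves on these libraries. Overlaps and exon lengths came from GENCODE vM39, promoters and miRNAs from RefSeq on GRCm38.p6, whose coordinates were not mixed with those of the table. All 40 members are named, and of the other imprinted genes and the imprint factors those called with or without the block; marker genes are given as summed lists, and genes singled out for their values are so described. The members and lists were chosen with earlier results of these data known. Parental origin is background knowledge.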

Additional observations from a re-analysis of the deposited data

How the results depend on the processing

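Mest was called in all 11 fits, with log2 fold changes from 2.81 to 3.40. Copg2, Zdbf2 and Kcnq1ot1 lost their call with edgeR's filterByExpr, which tested 24323 genes (edgeR adjusted p = 0.0628 for each, with values of 1.76, 0.54 and -1.57), Rtl1 there and without a count filter, and Meg3 in these and without NSD library 1 (-0.70). A fold threshold of 1.5 left 5 members, without Zdbf2. Members called were 6 in the main edgeR fit. The replicate block gave 11, of which 6 were higher and 5 lower, DESeq2 gave 5 higher, filterByExpr 1 in all, 1 higher and 0 lower, and no count filter and protein-coding genes only gave 1 lower each. Of all genes these settings called 172 higher and 520 lower (main), 668 and 1891 (block), 671 and 1296 (DESeq2), 50 and 80 (no filter), 1 and 0 (filterByExpr, with 4410 at an unadjusted p under 0.05) and 51 and 39 (protein-coding only). With protein-coding genes only, Meg3 and Kcnq1ot1 are lncRNAs and were left out, and Rtl1 was still called. The cause of the other differences was not tested. With each library left out in turn, members called higher ran from 3 to 5 and lower from 2 to 5, and the lone library of a group was assumed to vary like the other group. The median of the paternally expressed members was 0.16, and became 0.18 with DESeq2, with its size factors or without a filter, 0.13 with protein-coding genes only, and 0.13 to 0.18 with libraries left out. The median of the maternally expressed members was -0.19, and became -0.17 with DESeq2's size factors, -0.16 without a filter, -0.08 with protein-coding genes only (which leaves out the lncRNAs), and -0.24 to -0.11 with libraries left out. Some members, most of them near 0, changed sign. Trappc9 went to -0.01 with protein-coding genes only. With libraries left out Trappc9 ran from -0.02 to 0.05, Igf2 from -0.16 to 0.04 and Grb10 from -0.01 to 0.19. Ddc ran from -0.39 to 0.34, Nap1l5 from -0.02 to 0.09 and Rasgrf1 from -0.24 to 0.02. Asb4, with -0.33 ± 0.564 SE in the main fit, ran from -0.75 to 0.33.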
